A study of Rattus norvegicus with 16 samples.

Results

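Genes of lysosomal cathepsins and of their inhibitor, Cst3, were followed in neural stem and progenitor cells that had lost their mitogen. The 6 genes (Cst3, Ctsb, Ctsh, Ctsl, Ctsd and Ctsa) were taken from the chip annotation as every feature that lists exactly 1 symbol equal to one of these names, and features of 1 symbol were averaged on each array. This gave 11 of the 15151 features of the chip and 6 of the 6241 named genes tested. Ctsd had 4 features, Ctsb and Ctsl had 2 each, and the others had 1. The genes were chosen by their measured ratios to the reference in the 4 groups, a low Cst3 beside the cathepsins, so those ratios are given as a description without a test.

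Embryonic neocortex (day 14.5, Sprague-Dawley rats) supplied the cells, which grew as a monolayer in 10 ng/ml FGF-2, their mitogen. For 12 h or 6 d they then received either no factor or 10 ng/ml PDGF-AA, the A-chain dimer of platelet-derived growth factor. Each of 16 two-colour cDNA arrays, 4 per group, paired RNA of 1 group with RNA of cells kept in FGF-2, and dyes were exchanged on 2 of the 4 arrays of a group. Rat RNA was read on mouse cDNA spots, so a spot may bind its rat transcript less well than the mouse one. The labels state at least 2 RNA preparations without saying which arrays share one, so the errors and p-values reflect how hybridisations vary, and part of that may be technical. Arrays 1 to 4 of a group are numbered by accession, and the number pairs nothing. Values are log ratios to the FGF-2 reference. Their base is not stated and is taken as 2. A positive value is read as higher than in FGF-2. That direction is likely but not stated, and it rests on DNA replication genes lying below 0 after the mitogen is withdrawn. The reference enters as 1 shared control, and its own spread is left out. In bulk RNA, fewer cells of a type and less RNA per cell cannot be told apart.

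Cathepsins are proteases of the lysosome that break down proteins delivered by endocytosis and autophagy. Ctsb, Ctsh and Ctsl encode cysteine proteases, Ctsd encodes an aspartic protease, and Ctsa encodes a serine carboxypeptidase that also protects lysosomal glycosidases. Cystatin C, the product of Cst3, is secreted and binds cysteine cathepsins tightly, whereas the aspartic and serine enzymes are not its targets. A glycosylated form of cystatin C is also known as a cofactor of FGF-2 in cultures of neural stem cells.

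Many lysosomal genes carry E-box sequences bound by the transcription factor TFEB, so the RefSeq promoter windows of rat build GRCr8 were searched for the E-box core CACGTG and for the GC box GGGCGG on both strands. Matching by symbol gave a window for 5 of the 6 genes, each from 250 bases before to 50 bases after the gene's start. The 250 bases before the start are shown for the inhibitor and for Ctsl, Ctsd and Ctsa, the 3 cathepsins with the highest means without factor at 6 d, with motif matches in capitals.
Cst3, chr3:156793938-156794187, minus strand: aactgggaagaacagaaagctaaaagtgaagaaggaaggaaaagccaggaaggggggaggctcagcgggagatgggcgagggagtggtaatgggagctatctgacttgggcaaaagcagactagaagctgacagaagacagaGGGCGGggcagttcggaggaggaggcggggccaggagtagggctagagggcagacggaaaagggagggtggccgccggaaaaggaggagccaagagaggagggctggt
Ctsl, chr17:769854-770103, plus strand: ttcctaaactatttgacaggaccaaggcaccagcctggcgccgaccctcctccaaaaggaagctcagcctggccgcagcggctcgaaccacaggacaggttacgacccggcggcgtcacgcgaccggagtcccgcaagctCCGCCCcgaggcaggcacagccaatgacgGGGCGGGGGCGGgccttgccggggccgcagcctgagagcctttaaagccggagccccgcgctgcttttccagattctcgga
Ctsd, chr1:206968822-206969071, minus strand: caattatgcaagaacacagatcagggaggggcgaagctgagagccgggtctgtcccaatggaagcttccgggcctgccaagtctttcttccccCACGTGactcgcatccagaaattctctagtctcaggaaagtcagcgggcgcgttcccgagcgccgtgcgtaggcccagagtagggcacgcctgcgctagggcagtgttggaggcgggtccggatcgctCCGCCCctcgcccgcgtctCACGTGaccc
Ctsa, chr3:173988193-173988442, plus strand: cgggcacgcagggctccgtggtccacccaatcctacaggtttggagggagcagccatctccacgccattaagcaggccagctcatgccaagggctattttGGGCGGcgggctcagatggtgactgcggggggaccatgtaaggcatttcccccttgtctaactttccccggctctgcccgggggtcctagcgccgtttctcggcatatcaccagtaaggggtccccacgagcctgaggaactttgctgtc
The Ctsd window held 2 matches to the E-box core, beginning at positions -157 and -10 from the gene's start, and the windows of Cst3, Ctsh, Ctsl and Ctsa held 0. The E-box core was found in 6.42% of all 33469 promoter windows. Each of the 5 windows held the GC box, with 3 matches in Ctsl, at -110, -81 and -75, and 1 in each of the other four. The GC box was found in 33.1% of all windows. The 2 motifs shared no bases in the sequences shown. A match is a description of the letters and not a bound site.

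Cst3 was the one gene of the 6 that lay below the FGF-2 reference on all 16 arrays, and it was far lower at 6 d than at 12 h. After 12 h without factor its log2 ratio was -0.47, -0.54, -0.44 and -0.70 on the 4 arrays. With PDGF-AA at 12 h it was -0.52, -0.57, -0.71 and -0.30, so both 12 h groups covered the same range. After 6 d without factor the 4 arrays read -2.63, -2.04, -2.14 and -2.08. With PDGF-AA at 6 d they read -1.64, -2.92, -2.66 and -1.01, the widest spread of any gene and group here. No 6 d array reached the level of a 12 h array, and the 2 groups of 6 d overlapped. All 4 arrays of a group lay below 0 for 12% of all 12559 units tested (genes and unnamed features) at 12 h without factor, 7.23% with PDGF-AA, and 12.4% and 7.76% at 6 d in the same order.

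Expressed as fitted means, Cst3 was at -0.54 ± 0.21 without factor and -0.53 ± 0.21 with PDGF-AA at 12 h (SE, n = 4 arrays each). At 6 d it was at -2.22 ± 0.21 without factor, 4.67-fold below FGF-2, and at -2.06 ± 0.21 with PDGF-AA, 4.16-fold below. This SE comes from the fit over all groups and assumes that they vary alike. The SD of the arrays was 0.11 without factor and 0.17 with PDGF-AA at 12 h, and 0.28 and 0.89 at 6 d. For PDGF-AA at 6 d the SE therefore understates the spread of the group's own arrays. The difference between 6 d and 12 h was -1.68 ± 0.30 without factor and -1.53 ± 0.30 with PDGF-AA. Both pairs of groups were without overlap, which held, in the lower direction, for 2.47% of all units without factor and for 1.36% with PDGF-AA. The 4 arrays with PDGF-AA at 6 d differ in a number that stands in their titles and whose meaning is not given. Array 4 carries the commonest title number, as do all 12 h arrays and arrays 2, 3 and 4 without factor at 6 d, and arrays 1, 2 and 3 carry others. With only the 12 arrays of the commonest number, Cst3 at 6 d with PDGF-AA was -0.95, read from that 1 array, and the difference from 12 h was -0.42. With the title number as a term that difference was -0.71.

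**Figure D1:**
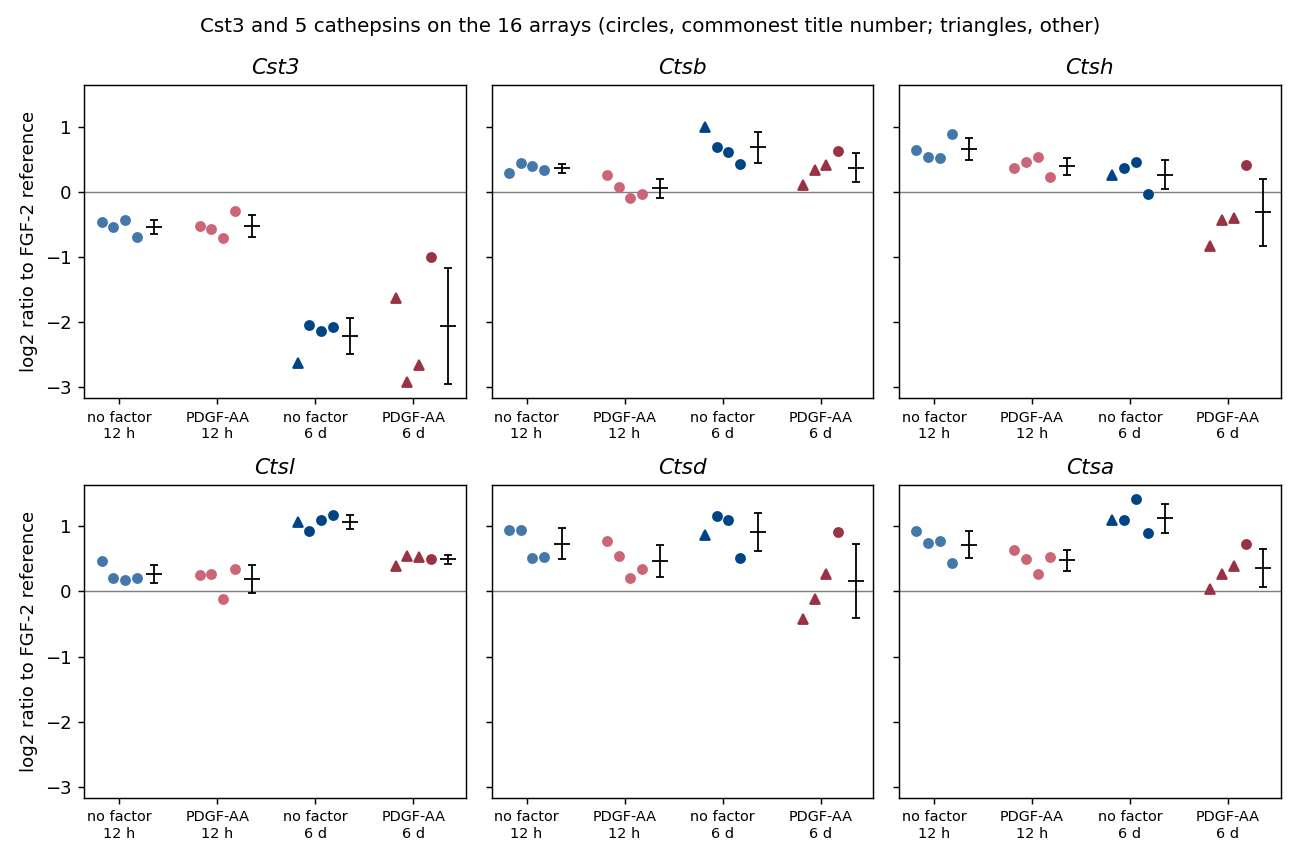
Log2 ratio to the FGF-2 reference (vertical axis) of the 6 genes on every array, by group, with the group mean and SD (n = 4) as a bar beside the points. Circles are arrays with the commonest title number and triangles those with another. Cst3 lies below 0 on all arrays and reaches -2.92, while the means of Ctsb, Ctsl, Ctsd and Ctsa are at their highest without factor at 6 d.

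Ctsl, the lysosomal cysteine protease cathepsin L, was the cathepsin with the clearest difference between the times. At 12 h the arrays without factor read 0.47, 0.21, 0.18 and 0.21, and those with PDGF-AA read 0.25, 0.27, -0.12 and 0.35. At 6 d the arrays without factor read 1.06, 0.92, 1.10 and 1.18. With PDGF-AA at 6 d they read 0.39, 0.54, 0.53 and 0.50, which is the tightest of its 4 groups and lies wholly below the arrays without factor. The fitted mean of Ctsl without factor was 0.27 ± 0.09 at 12 h and 1.07 ± 0.09 at 6 d, a level 2.09-fold that in FGF-2 (SE, n = 4). With PDGF-AA it was 0.19 ± 0.09 and 0.49 ± 0.09. The difference between the times was 0.80 ± 0.13 without factor, with no overlap, as for 3.62% of all units in the higher direction, and 0.30 ± 0.13 with PDGF-AA, again with no overlap, as for 1.66% of all units.

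Ctsb, which encodes cathepsin B, was read by 2 features that disagreed. Feature H3030E10_1 gave 0.69 ± 0.17 without factor and 0.24 ± 0.17 with PDGF-AA at 12 h, and 1.22 ± 0.17 and 0.80 ± 0.17 at 6 d. Feature H3053G10_1 stayed between -0.13 and 0.14 in the 4 groups, each with an SE of 0.10. The spots' sequences were not used here, so which of the 2 reads the rat transcript better is unknown, and the average below mixes both. That average was 0.28, 0.44, 0.40 and 0.33 at 12 h without factor and 0.26, 0.07, -0.09 and -0.03 with PDGF-AA, with no overlap. Read by either feature alone, the arrays of these groups overlapped. At 6 d the average was 0.99, 0.68, 0.61 and 0.43 without factor and 0.10, 0.34, 0.41 and 0.63 with PDGF-AA, with overlap. The highest array of each 6 d group carried a title number that no other array of its group carried. These were array 1 without factor and array 4 with PDGF-AA, whose number is the commonest over all arrays.

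Ctsh, which encodes the aminopeptidase cathepsin H, ran the other way in time. It read 0.64, 0.53, 0.52 and 0.89 at 12 h without factor and 0.36, 0.46, 0.53 and 0.22 with PDGF-AA. At 6 d without factor it read 0.25, 0.37, 0.46 and -0.04, so all 4 arrays lay below those of 12 h, as for 2.47% of all units. With PDGF-AA at 6 d it read -0.83, -0.44, -0.41 and 0.41, so 3 arrays lay below FGF-2 and array 4 stood alone above it. That array lay within the range of the 12 h arrays with PDGF-AA, so these 2 groups overlapped. The fitted means were 0.65, 0.39, 0.26 and -0.32 in that order of groups (SE 0.12 from the fit over all groups, n = 4). The SD of the arrays was 0.17, 0.13, 0.22 and 0.52 in the same order. The difference between 6 d and 12 h was -0.39 ± 0.17 without factor and -0.71 ± 0.17 with PDGF-AA. Ctsh was thus the cathepsin nearest to Cst3 in direction over time, and the only one with a mean below the reference in any group.

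The 4 features of Ctsd, the gene of the aspartic protease cathepsin D, ran together, from 0.75 to 1.06 at 6 d without factor and from 0.12 to 0.22 with PDGF-AA. Averaged, Ctsd read 0.95, 0.94, 0.52 and 0.53 at 12 h without factor and 0.77, 0.55, 0.20 and 0.35 with PDGF-AA. At 6 d it read 0.86, 1.16, 1.10 and 0.52 without factor. With PDGF-AA at 6 d it read -0.42, -0.11, 0.26 and 0.91, so array 4 lay within the range without factor and the other three below it. The 2 features of Ctsl likewise differed by at most the SE of 0.10 in every group.

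**Figure D2:**
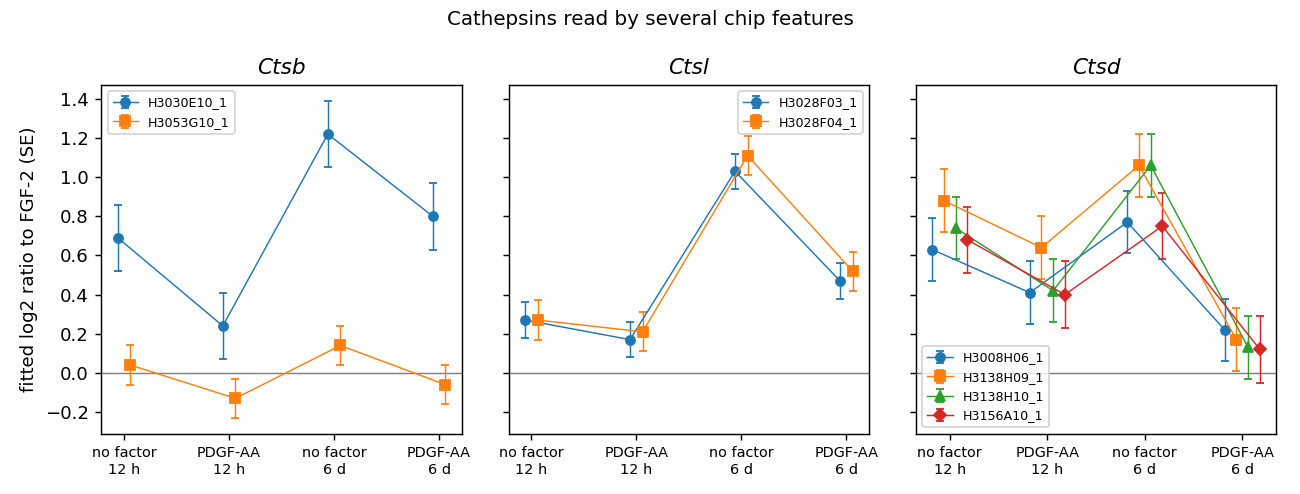
Fitted log2 ratio to the FGF-2 reference with its SE (vertical axis) in the 4 groups for each chip feature of Ctsb, Ctsl and Ctsd; lines join the groups of 1 feature to guide the eye. Feature H3030E10_1 of Ctsb reaches 1.22 where H3053G10_1 stays at 0.14, whereas the features of Ctsl and of Ctsd follow each other.

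Ctsa, which encodes protective protein/cathepsin A, lay above FGF-2 on all 16 arrays. All 4 arrays of a group lay above 0 for 12.9% and 6.46% of all units at 12 h without factor and with PDGF-AA, and for 13% and 8.32% at 6 d. Ctsa read 0.92, 0.74, 0.77 and 0.44 at 12 h without factor and 0.63, 0.50, 0.27 and 0.53 with PDGF-AA. At 6 d it read 1.09, 1.09, 1.42 and 0.89 without factor, a fitted mean of 1.12 ± 0.11 or 2.18-fold the level in FGF-2. With PDGF-AA at 6 d it read 0.04, 0.26, 0.39 and 0.73, each below every array without factor. Over time Ctsa differed by 0.41 ± 0.16 without factor and by -0.12 ± 0.16 with PDGF-AA, and Ctsd by 0.18 ± 0.22 and -0.31 ± 0.22.

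The order of the groups differed between the genes. For Ctsa, Ctsb, Ctsd and Ctsl the highest mean was that without factor at 6 d, and for Ctsh that without factor at 12 h. Ctsa, Ctsd and Ctsh were lowest with PDGF-AA at 6 d, and Ctsb and Ctsl were lowest with PDGF-AA at 12 h. For Ctsa and Ctsd the arrays of each group overlapped with those of its neighbours in this order. The mean of the 5 cathepsins minus Cst3, a plain gap between RNA values, was 1.08 ± 0.11 at 12 h without factor and 0.84 ± 0.18 with PDGF-AA (SD, n = 4). It includes Ctsd and Ctsa, whose enzymes are not targets of cystatin C, and sets against each other values by which the genes were chosen. At 6 d it was 3.03 ± 0.34 without factor and 2.27 ± 0.81 with PDGF-AA, where the 4 arrays ranged from 1.5 to 3.04. Most of the gap at 6 d came from Cst3, since the cathepsin mean itself was 0.81 ± 0.15 without factor and 0.21 ± 0.32 with PDGF-AA.

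**Figure D3:**
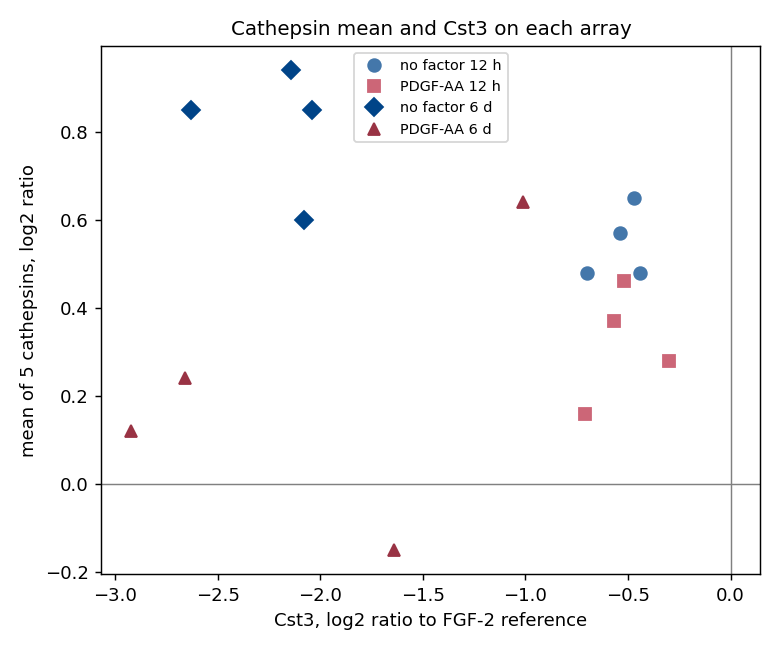
Mean log2 ratio of the 5 cathepsins (vertical axis) against that of Cst3 (horizontal axis) on each of the 16 arrays, marked by group. The 12 h arrays cluster near a Cst3 ratio of -0.5 with cathepsin means from 0.16 to 0.65, and the 6 d arrays without factor combine Cst3 near -2 with cathepsin means from 0.60 to 0.94. The PDGF-AA arrays at 6 d spread over both axes.

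Across the 16 arrays, with the dye effect removed, Ctsd and Ctsa varied most alike of the 6 genes (Pearson r = 0.88), followed by Ctsb with Ctsl and Ctsb with Ctsa (both 0.71) and Ctsl with Ctsa (0.70). Cst3 varied against Ctsl (-0.71) and with Ctsh (0.64). The arrays share the reference, and the differences between the 4 groups enter each r, so these are descriptions without a test. Among 6240 other named genes, those most like Cst3 were Vgll4 (r = 0.94), Snapc2 (0.93), Mmp2 (0.92), Tgif2 (0.92) and Cox7a2l (0.90). The genes most opposed to it were Map4k5 (-0.94), Col3a1 (-0.93), Epb41l2, Selenoi and Strn (each -0.91).

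For Ctsb the most alike genes were Rnf13 (0.96), Sparc (0.93) and Abhd12 (0.92). For Ctsh they were Eif3k and Mfge8 (both 0.94) and Prrc2b (0.92), and for Ctsl they were Bace1 (0.91), Entpd2 (0.90) and Atrn (0.90). For Ctsd they were Gaa and Nrbp2 (both 0.95) and Ptprs (0.93), and for Ctsa they were Plxnb1 (0.93), Atat1 (0.92) and Cnppd1 (0.91). Gaa encodes the lysosomal acid alpha-glucosidase. Its group means were 0.88, 0.59, 1.15 and 0.34 in the order no factor at 12 h, PDGF-AA at 12 h, no factor at 6 d and PDGF-AA at 6 d, beside 0.73, 0.47, 0.91 and 0.16 for Ctsd.

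Whether PDGF-AA altered these genes relative to withdrawal alone is a difference between the same group values by which the genes were chosen, so the differences are given with their SE as a description. In the fit over all 12559 units (limma, two-sided) 0 of the 6 genes passed an adjusted p of 0.05 at either time, where 0.0159% of all units passed at 12 h and 0.00796% at 6 d. At an unadjusted p under 0.05 there were 1 of the 6 at 12 h and 5 at 6 d, beside 681 and 1100 of all 12559 units. Because of the choice nothing is read from either count of the 6. Ctsb had the largest difference at 12 h, -0.31 ± 0.14. The arrays of its averaged features did not overlap, as for 0.685% of all units in the lower direction, but those of either feature alone did. The differences of Ctsd, Ctsh, Ctsa and Ctsl at 12 h were -0.27, -0.25, -0.24 and -0.08, and that of Cst3 was 0.01.

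At 6 d all 5 cathepsins had lower means with PDGF-AA than without factor. Ctsa differed by -0.77 ± 0.16, a level 1.70-fold lower, and Ctsl by -0.57 ± 0.13. For both genes the 4 arrays of a group did not overlap with those of the other, as for 1.35% of all units in the lower direction. Ctsd differed by -0.75 ± 0.22, Ctsh by -0.58 ± 0.17 and Ctsb by -0.31 ± 0.14, each with overlapping arrays. The SE of the fit assumes groups that vary alike. The SD of the arrays with PDGF-AA was 0.57 for Ctsd and 0.52 for Ctsh, beside 0.29 and 0.22 without factor. For Cst3 the difference was 0.17 ± 0.30, smaller than its SE.

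The values at 6 d depended on array 4 with PDGF-AA, on which Ctsb, Ctsh, Ctsd and Ctsa were the highest of their group and Cst3 the least low. Without it Ctsd was at -0.97, Ctsa at -0.88, Ctsh at -0.78 and Ctsl at -0.58, and Cst3 turned to -0.20. In that fit 3 of the 6 genes passed in place of 0, and because of the choice nothing is read from that count. Over all units 1 passed at 6 d with all arrays, and 1 to 58 when any 1 array was left out. With only the arrays of the commonest title number, where this array alone stands for PDGF-AA at 6 d, Ctsl was at -0.54, Ctsa at -0.40, Ctsd at -0.05, Ctsh at 0.05, Ctsb at 0.07 and Cst3 at 1.12. With the title number as a term, Ctsa was at -0.64, Ctsl at -0.55, Ctsd at -0.54, Ctsh at -0.42, Ctsb at -0.33 and Cst3 at 0.71. Of the 6, Ctsl moved least over these settings. The difference between the effects of PDGF-AA at the 2 times was -0.53 ± 0.23 for Ctsa and -0.49 ± 0.18 for Ctsl, and it passed for 0 of 12559 units (497 with an unadjusted p under 0.05).

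**Figure D4:**
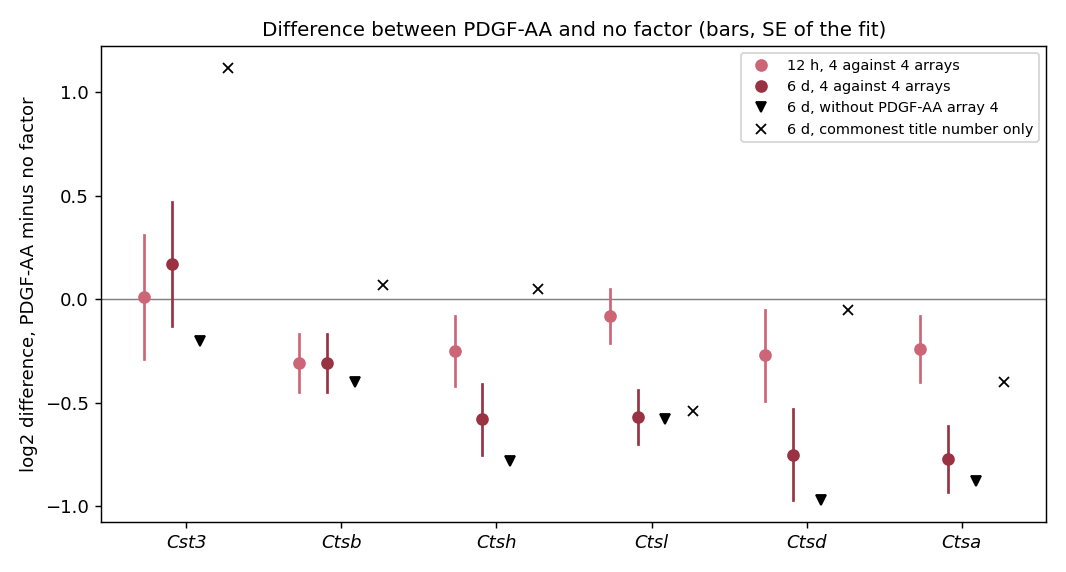
Log2 difference between PDGF-AA and no factor (vertical axis) for the 6 genes at 12 h and at 6 d, with the SE of the fit as bars, and at 6 d also without array 4 with PDGF-AA and with arrays of the commonest title number only. The 6 d points of Ctsl stay between -0.58 and -0.54, whereas those of Ctsd run from -0.97 to -0.05 and those of Cst3 from -0.20 to 1.12.

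Some of the other lysosomal genes, which the choice of the 6 did not use, were also higher than in FGF-2 without factor. All gene lists were drawn up with earlier results of these data known, so their counts are no independent support. Of 28 other lysosomal hydrolases and their activators, 10 were higher and 1 was lower at 12 h without factor, with a median log2 ratio of 0.30 where the median of all units was 0.00, and 5.21% of all units were higher and 6.48% lower. At 6 d without factor 9 were higher and 0 lower, with a median of 0.13, where 6.99% of all units were higher and 6.73% lower. The largest rise over FGF-2 at 6 d was that of Psap, the gene of prosaposin, the precursor of the saposins, at 1.65 ± 0.16 (limma adjusted p = 6.71e-06). On the 4 arrays Psap read 1.90, 1.61, 1.84 and 1.22 at 6 d without factor and -0.05, 0.72, 0.71 and 1.36 with PDGF-AA. Gaa rose by 1.15 ± 0.13, Smpd1, which encodes acid sphingomyelinase, by 1.05 ± 0.12, and Dpp7, which encodes a dipeptidyl peptidase, by 0.98 ± 0.11 at 6 d. Arsb, the gene of arylsulfatase B, was the one that was lower at 12 h, at -0.70 ± 0.10.

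With PDGF-AA the hydrolase counts were smaller, 2 higher and 1 lower at 12 h (medians 0.14 and 0.00 for the list and all units; 0.661% of units higher, 2.35% lower) and 4 higher and 1 lower at 6 d (medians 0.01 and 0.00; 1.9% of units higher, 1.32% lower). Compared directly, PDGF-AA against no factor gave 0 of 28 at both times by limma, with medians of -0.16 and -0.20. At an unadjusted p under 0.05 there were 2 at 12 h and 9 at 6 d, all lower, beside 681 and 1100 of all 12559 units in either direction. Without array 4 with PDGF-AA at 6 d, 3 of the 28 were lower. Over all units 1 to 58 passed at 6 d when any 1 array was left out. The counts without factor moved with single arrays, from 10 to 5 without array 2 and to 6 without array 3 at 12 h, and from 9 to 5 without array 2 and to 4 without array 3 at 6 d. Without a dye term they were 4 and 5. At 6 d with PDGF-AA the 4 became 0 without array 2 or array 4 and 1 without array 3. At 12 h with PDGF-AA the 2 higher became 0 to 3 and the 1 lower 0 or 1 when any 1 of the 16 arrays was left out, and they moved by over 1.5 times in 16 and 14 of 26 alternatives.

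Of 13 lysosomal membrane proteins, 3 were higher and 0 lower at 12 h without factor (median 0.20), and 5 and 0 at 6 d (median 0.48). Of all units, 5.21% were higher and 6.48% lower at 12 h without factor, and 6.99% and 6.73% at 6 d. Scarb2, whose product carries glucocerebrosidase to the lysosome, was at 0.66 ± 0.10 and 0.82 ± 0.10. Lamp2, a main membrane protein of the lysosome, was at 0.51 ± 0.12 (not passing without array 2 or array 3) and 0.87 ± 0.12. Its 2 features differed at 6 d without factor, with means of 0.43 and 1.3. With PDGF-AA only Scarb2 passed at 12 h, at 0.48 ± 0.10, and 0 of 13 at 6 d by limma (2 at an unadjusted p under 0.05). PDGF-AA against no factor gave 0 of 13 at 6 d by limma, with a median of -0.40. At an unadjusted p under 0.05 there were 4, beside 1100 of all 12559 units in either direction. Without array 4 with PDGF-AA, 2 of the 13 passed. Of 12 autophagy genes, 6 were higher at 12 h without factor (3 without its array 2) and 4 were higher and 1 lower at 6 d. The 1 lower was lost in 21 of 26 alternatives, among them the values without centring and the fits without any 1 array of its own group. Among the higher genes Sqstm1, which encodes the cargo receptor p62, was at 0.88 ± 0.14 and 1.17 ± 0.14, and Wipi1 at 0.71 ± 0.11 and 0.74 ± 0.11. With PDGF-AA 2 were higher at 12 h and 1 at 6 d, where 0.661% and 1.9% of all units were higher. Each of these PDGF-AA counts ranged down to 0 when an array was left out, as did that of Scarb2.

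Of 16 genes that sort enzymes to the lysosome or control lysosomal genes, 3 were higher and 0 lower at 12 h without factor. At 6 d without factor 2 were higher and 1 lower. The shares of all units were 5.21% higher and 6.48% lower at 12 h, and 6.99% and 6.73% at 6 d. Each of these counts of the 16 ranged down to 0 when an array was left out. Igf2r, the mannose 6-phosphate receptor that delivers newly made cathepsins to the lysosome, had lower values at 6 d than at 12 h. It read 0.66, 0.34, 0.37 and 0.37 at 12 h and -0.46, 0.07, -0.06 and -0.31 at 6 d without factor, without overlap, a difference of -0.62 ± 0.14 (limma adjusted p = 0.0251). With PDGF-AA the difference was -0.79 ± 0.14 (limma adjusted p = 0.00779). Gga2, a clathrin adaptor on the same route, differed by -0.52 without factor and -0.64 with PDGF-AA (both SE 0.13). These were the 2 genes of the 16 that passed as lower at 6 d, beside 1.87% of all units passing without factor and 1.07% with PDGF-AA. Without factor both calls were lost without array 1, 2 or 3 at 12 h or array 1, 3 or 4 at 6 d, with an adjusted p for Igf2r of up to 0.102 (limma), and the count differed from 2 in 17 of 26 alternatives. With PDGF-AA neither passed with only the groups compared, with the title number as a term or with the commonest title number, and Igf2r passed whichever array was left out.

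**Figure D5:**
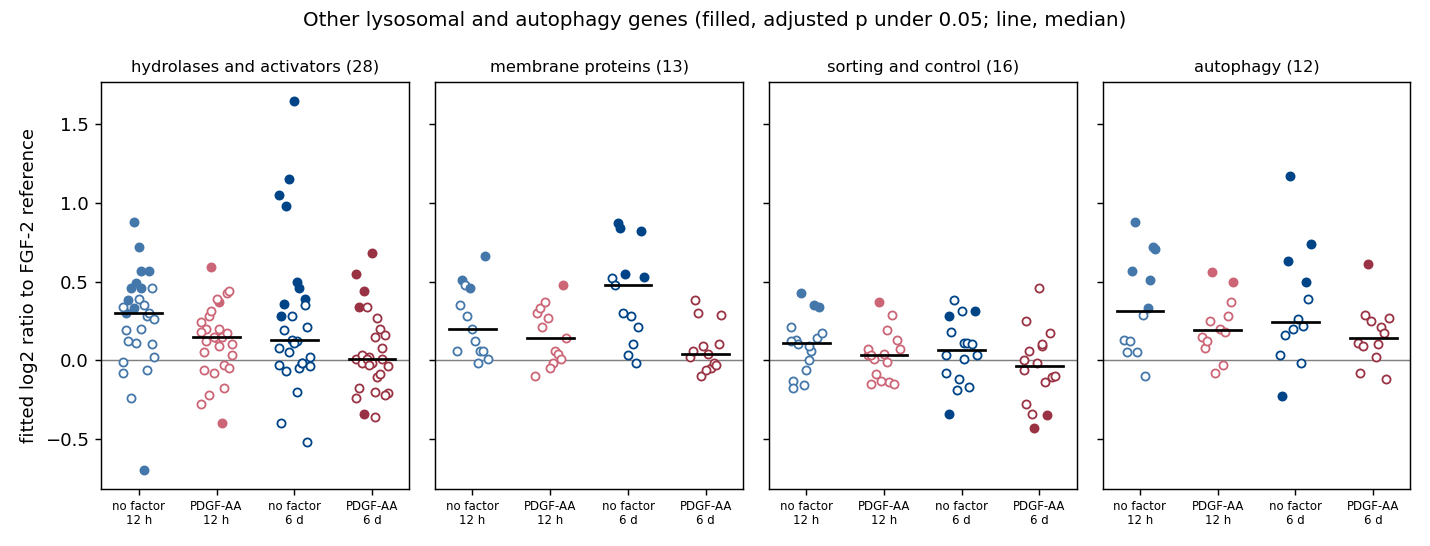
Fitted log2 ratio to the FGF-2 reference (vertical axis) of each tested gene of 4 lists in the 4 groups; filled points passed an adjusted p of 0.05 and the line is the list's median. The median of the 28 hydrolases is 0.30 at 12 h without factor and 0.01 at 6 d with PDGF-AA, and that of the 13 membrane proteins is 0.48 at 6 d without factor.

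Among 3 other cystatins tested, Cstb, the intracellular inhibitor of cysteine cathepsins, differed from Cst3 in direction. It was at 0.52 ± 0.11 at 12 h and 0.77 ± 0.11 at 6 d without factor (limma adjusted p = 0.00374 and 0.000143). On the arrays it read 0.64, 0.50, 0.46 and 0.49 at 12 h and 0.91, 0.74, 0.98 and 0.46 at 6 d, all above 0. The other 2 did not pass in any group, nor did the 3 other cathepsins tested, Ctsc, Cts7 and Cts8 (limma, with 0 of these 3 at an unadjusted p under 0.05). Of the 3 cystatins, 2 had an unadjusted p under 0.05 (limma) at 12 h without factor, 1 of them lower. In each other group 1 of the 3 did, and it was not lower.

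Cathepsins are abundant in microglia, so marker lists of other cell types were read on the same arrays. Of 22 microglia and macrophage markers listed, 4 were tested (C1qa, C1qb, C1qc and Fcer1g), and 0 passed in any group against FGF-2 (limma; 0 at an unadjusted p under 0.05). Their mean per array lay between -0.21 and 0.20 at 12 h without factor, -0.11 and 0.43 with PDGF-AA, and -0.23 and 0.21 and -0.15 and 0.11 in the same order at 6 d. Of 14 astrocyte markers listed, 7 were tested, and their mean was 0.37 ± 0.13 and 0.17 ± 0.13 at 12 h and 1.16 ± 0.40 and 0.43 ± 0.56 at 6 d (SD, n = 4). The array means at 6 d ran from 0.61 to 1.48 without factor and from -0.08 to 1.20 with PDGF-AA. At 6 d without factor 6 of the 7 passed, 5 of them higher, Clu most at 3.22 ± 0.36. In that group 6.99% of all units were higher and 6.73% lower. Oligodendrocyte lineage markers, 3 tested of 15 listed, had means of 0.52 ± 0.31 and 0.27 ± 0.22 at 12 h without factor and with PDGF-AA and of 1.79 ± 0.73 and 1.38 ± 0.64 at 6 d, and 3 of 3 were higher at 6 d without factor. Mesenchymal and vascular markers, 7 tested of 14, were at 0.14 ± 0.08, 0.13 ± 0.08, 0.57 ± 0.06 and 0.42 ± 0.22 in the same order, with 4 of 7 higher at 6 d without factor. All 3 lists had the same order of group means as Ctsl and Ctsb, and their part in the cathepsin values was not tested. Neuron markers (5 tested of 15) were at 0.13, 0.20, 0.33 and 0.02, and neural stem and progenitor markers (5 tested of 14) at -0.22, -0.31, -0.23 and -0.31. At 6 d without factor 2 of the 5 neuron markers were higher and 0 lower. Of the 5 stem and progenitor markers, 1 was higher and 2 were lower there.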

How the data were processed

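Per the labels' protocols, 40 micrograms of total RNA per sample were labelled with cyanine dyes and hybridised to cDNA chips of mouse sequences, read with a ScanArray scanner and QuantArray. The authors deposited 1 log ratio per spot and array, used here as log2 values. The base, the background correction, the normalisation and spot filters are not given in the sources used here. All 16 columns were used (0 left out), and spot intensities were not used here. Precision is limited by the number of arrays. Symbols come from the mouse annotation of the chip, and rat promoter sequences from RefSeq (GRCr8).

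Arrays were centred on their median, features with exactly 1 symbol were averaged per symbol, and others were kept as they stood. A unit needed values on 3 or more arrays in each group, which 12559 had. One model over all 16 arrays, with group coefficients and a dye term, was fitted in limma 3.58.1 (R 4.3.3) with empirical Bayes moderation. Each SE of the fit rests on a spread shared by all groups. It therefore understates the error of a group whose arrays vary more than the others. Tests were two-sided with Benjamini-Hochberg adjustment over all units at 0.05. The fit was tested on simulated data. Correlations used ratios with the fitted dye effect removed, and values printed per array keep it. For the 6 genes no contrast is independent of their choice, so no p-value is given for any of them.

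The 6 genes and all gene lists were chosen with earlier results of these data known. Named are the 6 genes, up to 6 genes of a list with the largest changes that passed with all arrays on one side (or groups without overlap), and the genes most like each of the 6 by Pearson correlation (5 at either end for Cst3, 3 for the others). Alternatives were the centring, scaling and quantile normalisation of arrays, the dye term, the groups in the fit, the title number, single features or their median, complete features, a robust spread, and leaving out each array.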

Additional observations from a re-analysis of the deposited data

Results flagged for a closer look

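Of 24 sets of 4 arrays (6 genes in 4 groups), 2 had an array far from the rest by Dixon's gap, and chance flags about 1 in 20 sets. Cst3 without factor at 6 d read -2.63 on array 1, where the next value was -2.14. Ctsl without factor at 12 h read 0.47 on array 1, where the next value was 0.21.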

How the results depend on the processing

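The values of the 6 genes against FGF-2 and between the times, 36 in all, took 984 alternative values, of which 24 moved by at least the spread between arrays. These were Ctsb read by single features, and values of Cst3, Ctsb, Ctsh, Ctsd and Ctsa with the title number as a term or with the commonest title number only. The number of the 6 genes past the threshold for PDGF-AA against no factor was 0 at 12 h under every alternative, and at 6 d it was 0 over all arrays and 0 to 3 when an array was left out. Over all units 1 passed at 6 d with all arrays, and 1 to 58 with an array left out. Signs turned as follows, the cause being not tested. Cst3 under PDGF-AA against no factor at 12 h was -0.02 with scaled arrays, -0.04 with quantile normalisation and -0.09 to 0.10 with an array left out, and Ctsl there -0.14 to 0.02. At 6 d Cst3 was -0.14 with scaled arrays and -0.20 to 0.46 with an array left out, and the commonest title number gave 0.07 for Ctsb and 0.05 for Ctsh. In the difference between the effects at both times, Cst3 was -0.12 with scaled arrays and -0.21 to 0.45 with an array left out. Ctsb there, at 0.00 over all arrays, was -0.02 with scaled arrays, -0.02 with the title number as a term, -0.03 for H3053G10_1 and -0.09 to 0.12 with an array left out. The commonest title number gave 0.30 for Ctsh and 0.22 for Ctsd there. With that number 1 array stands for PDGF-AA at 6 d and is assumed to vary like the others. Timp4 at 6 d with PDGF-AA was then at 0.01. No paired analysis was possible because the one label the groups share, the title number, is the same on all 12 h arrays and marks no pairs; it was fitted as a term instead. Spot signal over background was not used here.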

Other observations

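Secreted proteases and their inhibitors, another group of 14 tested genes, held a gene that followed Cst3 closely. Mmp2, the gene of the secreted gelatinase A, was at -0.01 and -0.24 at 12 h without factor and with PDGF-AA, and at -1.80 ± 0.17 and -1.83 ± 0.17 at 6 d (SE, n = 4). Its arrays at 6 d read -2.10, -1.60, -2.02 and -1.48 without factor and -1.14, -2.50, -2.11 and -1.57 with PDGF-AA, all below every 12 h array. Between the times it differed by -1.79 ± 0.25 without factor and -1.59 ± 0.25 with PDGF-AA (limma adjusted p = 0.000933 and 0.00413). The call with PDGF-AA was lost when only the compared groups were fitted, and when the model also included the title number. It was kept whichever array was left out, and the difference stayed between -1.87 and -1.35 over all alternatives. Timp3, which encodes a matrix-bound inhibitor of metalloproteinases, was higher without factor, at 0.83 ± 0.18 at 12 h and 1.20 ± 0.18 at 6 d. Timp4, of the same family, was at -0.89 ± 0.18 at 6 d with PDGF-AA. Timp4 was lost without array 2 of that group, and Timp3 at 12 h without array 2 of its group. Of the 14, 2 were higher and 0 lower at 12 h without factor (5.21% and 6.48% of all units), and 2 higher and 1 lower at 6 d (6.99% and 6.73%). With PDGF-AA 0 were higher and 1 lower at 12 h (0.661% and 2.35%), and 1 higher and 2 lower at 6 d (1.9% and 1.32%). With an array left out, the higher count at 12 h without factor ran from 0 to 3 and the lower count at 12 h with PDGF-AA from 0 to 1. At 6 d the counts without factor ran from 1 to 2 in both directions, and those with PDGF-AA from 0 to 1 higher and from 1 to 2 lower.

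The promoter windows of the lysosomal lists held the E-box core in 3 of 20 windows of hydrolases and activators (15%) and in 5 of 14 windows of membrane proteins (35.7%), beside 6.42% of all windows. The GC box was in 16 of the 20 and 7 of the 14, beside 33.1% of all windows. All windows include those of genes of every kind, so the shares are descriptions and were not tested.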
